A study of Zea mays with 6 samples.

Results

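Among the transcripts of young maize ears, 18 genes differed at least 1.8-fold between the 2 libraries of a single genotype. They were chosen from the replicate values themselves. A gene was taken when its mean over all 6 libraries was at least 5 CPM (the count scaled to a common library total) and when the ratio between the 2 libraries of at least 1 genotype was 1.8 or more. The table held 45578 genes, of which 17376 had a mean of at least 5 CPM, so the 18 genes were 0.104% of those that could be chosen. Because the replicate ratios chose the genes, they are described here and not tested.

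The 6 libraries were bulk RNA sequencing of very young ears, up to 0.5 cm long, with 2 libraries of each genotype. The genotypes were 1 line labelled as overexpressing RHW1 (line OE#1), a line labelled as an RHW1 knockout made with CRISPR, and wild type. The design text names the mutant rhw1-1, and the title of the series concerns RHW1, ZCN4 and husk leaf width. The sources used here do not give the promoter of the transgene, the inbred background or the edit in RHW1, nor what separates replicate 1 from replicate 2 (other plants, another pool or another preparation of the same RNA). Spread between 2 libraries may therefore be technical, and p-values measure only that spread.

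The maize ear is a female inflorescence that forms in a leaf axil and is wrapped by husk leaves. A very young ear carries the inflorescence meristem and the spikelet pair and spikelet meristems that it gives off in rows along its flanks. A bulk library averages all cells of the dissected tissue, so fewer cells of a type and less RNA per cell cannot be told apart. Replicate libraries of 1 genotype share their intended genotype and organ, and the ratio between them sets the scale against which a difference between genotypes is read.

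The 18 genes carry Zm00001d identifiers, as did 17367 of the 17376 genes of at least 5 CPM. They matched 0 entries of the RefSeq gene list for Zm-B73-REFERENCE-NAM-5.0. Of 119 gene symbols looked up, 0 matched any identifier of the count data, so the lack of a match says nothing about the 18 in particular. They are given by identifier, with no function or position. Of the genes with a mean of at least 5 CPM, 8 with ENSRNA identifiers and 1 microRNA gene were not among them. Total counts of the libraries ranged from 21094445 to 23999698. The 18 genes together held 0.0223% to 0.0433% of the reads of a library.

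Most of the 18 genes were weakly expressed, with a median over the genes of 7.22 CPM against 31.5 CPM for all genes of at least 5 CPM. Means of 11 genes lay under 8 CPM, 6 lay between 15 and 25 CPM, and Zm00001d021882 stood alone at 185 CPM. The number of reads behind a value ranged from 24 to 6029. For comparison, the median replicate ratio of all genes of at least 5 CPM was 1.05 in each genotype. Among the 7211 genes between 5 and 25 CPM, where 17 of the 18 lay, it was 1.08 in the overexpression line, 1.09 in the knockout and 1.08 in wild type.

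**Figure D1:**
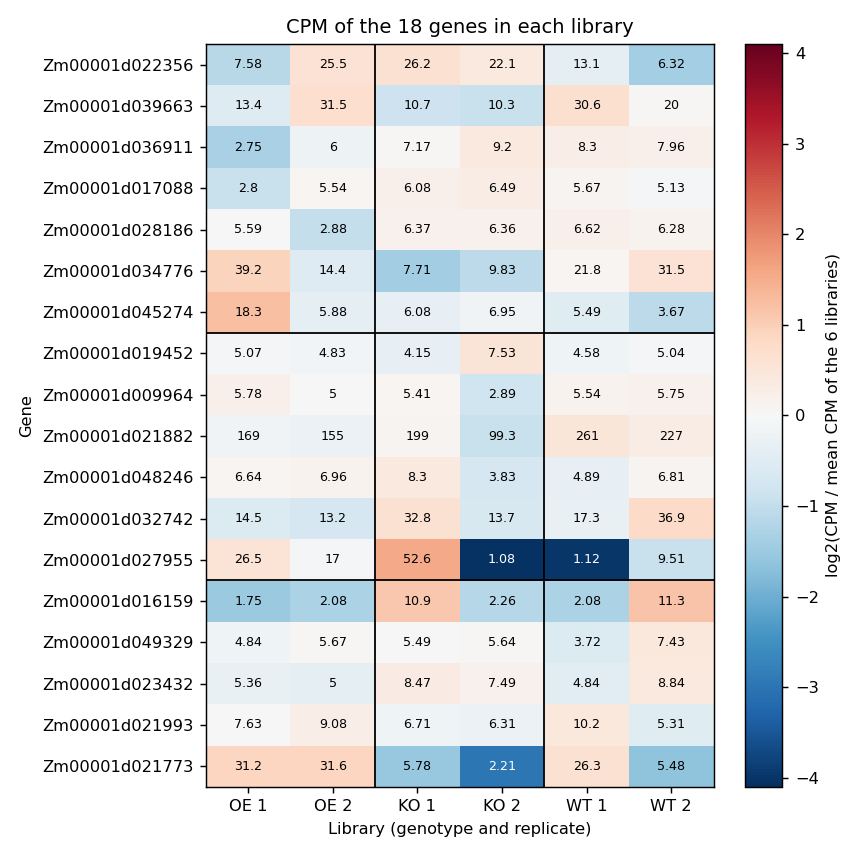
Rows are the 18 genes, ordered by the genotype with their largest replicate ratio, and columns are the 2 libraries each of the overexpression line (OE), the knockout (KO) and wild type (WT). The number in a cell is the CPM, and the colour is the log2 ratio of that CPM to the gene's mean over the 6 libraries. Zm00001d027955 is deep blue in KO 2 and WT 1, at 1.08 and 1.12 CPM, and red in KO 1, at 52.6 CPM.

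The 3 genotypes gave similar numbers of such genes. The overexpression pair chose 7 genes (0.0403% of 17376), the knockout pair 8 (0.046%) and the wild-type pair 8 (0.046%). In the overexpression line 4 of the 7 were higher in replicate 2 (0.023% of the 17376 genes) and 3 in replicate 1 (0.0173%). In the knockout 7 of the 8 were higher in replicate 1 (0.0403%), and the remaining gene, Zm00001d019452, was higher in replicate 2 (0.00576%). In wild type 5 of the 8 were higher in replicate 2 (0.0288%) and 3 in replicate 1 (0.0173%). Knockout replicate 2 was the lowest of the 6 libraries for 6 of the 18 genes, and each other library was the lowest for 2 or 3. The values behind these counts chose the genes, and the share over all genes was not counted, so nothing is read from them about the library. A single pair chose 13 genes, 2 pairs chose 5 genes, and 0 genes were chosen by all 3 pairs.

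The widest spread was that of Zm00001d027955. It had 26.5 and 17.0 CPM in the overexpression line, 52.6 and 1.08 CPM in the knockout, and 1.12 and 9.51 CPM in wild type. The counts behind these values were 558 and 408, 1255 and 24, and 26 and 215 reads. A knockout library and a wild-type library were thus at nearly the same low level, while their partner libraries were 48.6 times higher in the knockout (exact 95% counting interval 32.5 to 76.1) and 8.45 times higher in wild type (5.61 to 13.2). The overexpression pair differed 1.56-fold. Counting intervals cover counting error only.

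Zm00001d016159 was high in 1 knockout and 1 wild-type library and low in the rest. It had 1.75 and 2.08 CPM in the overexpression line, 10.9 and 2.26 CPM in the knockout, and 2.08 and 11.3 CPM in wild type. The ratio was 4.83 within the knockout (95% counting interval 3.56 to 6.68) and 5.45 within wild type (3.99 to 7.59). Knockout replicate 1 and wild-type replicate 2 stood together at 10.9 and 11.3 CPM, and the other 4 libraries lay between 1.75 and 2.26 CPM.

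Zm00001d032742 was high in the same libraries, at a higher level. It had 14.5 and 13.2 CPM in the overexpression line, 32.8 and 13.7 CPM in the knockout, and 17.3 and 36.9 CPM in wild type. Again knockout replicate 1 and wild-type replicate 2 were the high libraries, 2.4 and 2.13 times above their partners. Over the 6 libraries its log2 CPM had a Pearson r of 0.97 with that of Zm00001d016159. Zm00001d048246, chosen by the knockout pair alone, had 6.64 and 6.96 CPM in the overexpression line, 8.30 and 3.83 CPM in the knockout, and 4.89 and 6.81 CPM in wild type. Its wild-type ratio of 1.39 pointed to the same replicate as in the 3 genes above.

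Zm00001d021773 divided the libraries in another way. It had 31.2 and 31.6 CPM in the overexpression line, 5.78 and 2.21 CPM in the knockout, and 26.3 and 5.48 CPM in wild type. Both overexpression libraries and wild-type replicate 1 were high, and wild-type replicate 2 was as low as knockout replicate 1. The wild-type ratio was 4.80 (95% counting interval 3.95 to 5.88) and the knockout ratio 2.62 (1.88 to 3.70), while the overexpression libraries differed 1.01-fold.

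The knockout pair also chose 3 genes with little spread in the other genotypes. Zm00001d021882, the most abundant of the 18, had 169 and 155 CPM in the overexpression line, 199 and 99.3 CPM in the knockout, and 261 and 227 CPM in wild type. Its knockout ratio of 2.001 rested on 4738 and 2201 reads (95% counting interval 1.90 to 2.11). Zm00001d009964 was at 5.41 and 2.89 CPM in the knockout and between 5.0 and 5.78 CPM in the other 4 libraries. Zm00001d019452 was at 4.15 and 7.53 CPM in the knockout and between 4.58 and 5.07 CPM elsewhere. In these 3 genes knockout replicate 2 was the library that stood apart, lower in the first 2 and higher in Zm00001d019452.

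The overexpression pair chose 7 genes, led by Zm00001d022356. This gene had 7.58 and 25.5 CPM in the overexpression line, 26.2 and 22.1 CPM in the knockout, and 13.1 and 6.32 CPM in wild type. Its ratio was 3.36 within the overexpression line (95% counting interval 2.82 to 4.03) and 2.07 within wild type (1.69 to 2.55). One overexpression library was at the knockout level and the other at the wild-type level.

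Zm00001d039663 and Zm00001d034776 differed between the same overexpression libraries in opposite directions. Zm00001d039663 had 13.4 and 31.5 CPM in the overexpression line, 10.7 and 10.3 CPM in the knockout, and 30.6 and 20.03 CPM in wild type. Zm00001d034776 had 39.2 and 14.4 CPM in the overexpression line, 7.71 and 9.83 CPM in the knockout, and 21.8 and 31.5 CPM in wild type. For both genes the 2 knockout libraries were the lowest of the 6, and 1 overexpression library lay above both wild-type libraries and the other below both.

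Zm00001d045274 had 18.3 and 5.88 CPM in the overexpression line, 6.08 and 6.95 CPM in the knockout, and 5.49 and 3.67 CPM in wild type, so that overexpression replicate 1 alone was high. In 3 genes a single overexpression library was low. Zm00001d036911 was at 2.75 CPM and Zm00001d017088 at 2.80 CPM in overexpression replicate 1, with 6.0 to 9.20 CPM and 5.13 to 6.49 CPM in the other 5 libraries. Zm00001d028186 was at 2.88 CPM in overexpression replicate 2 and between 5.59 and 6.62 CPM in the other 5.

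The wild-type pair alone chose 3 genes, all under 8 CPM on average. Zm00001d021993 had 10.2 and 5.31 CPM in wild type, which enclosed the 6.31 to 9.08 CPM of the other 4 libraries. Zm00001d049329 had 3.72 and 7.43 CPM in wild type, which enclosed 4.84 to 5.67 CPM. Zm00001d023432 had 4.84 and 8.84 CPM in wild type, enclosing 5.36 and 5.0 CPM in the overexpression line and 7.49 and 8.47 CPM in the knockout. In each of these 3 genes the wild-type libraries held both the highest and the lowest value.

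Near the limit the genes formed a continuous series. The genes just inside had largest ratios of 1.82 (Zm00001d019452, knockout) and 1.83 (Zm00001d023432, wild type), and the nearest genes outside had 1.799 and 1.79. No gap in the ratios marked the limit.

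Spread in a genotype could be set beside spread in the other 2 genotypes, whose ratios also took part in the choice. For the 8 genes of the wild-type pair, 5 (62.5%) also had a ratio of at least 1.8 in another genotype, against 0.0863% of all genes of at least 5 CPM. For the 8 genes of the knockout pair it was 4 (50%), against 0.0806%. For the 7 genes of the overexpression pair it was 1 (14.3%), against 0.0691%. Weaker genes passed 1.8 more often. Among genes between 5 and 25 CPM, 0.0971% did within the overexpression line, 0.0971% within the knockout and 0.111% within wild type. Over all genes of at least 5 CPM these shares were 0.0403%, 0.046% and 0.046%. The median ratio in the other 2 genotypes was 1.19 for the genes of the wild-type pair, 1.15 for those of the knockout pair and 1.16 for those of the overexpression pair, where all genes between 5 and 25 CPM had 1.09, 1.08 and 1.09. These medians hide 2 kinds of gene: a few that varied widely in 2 genotypes, and others that varied in 1.

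The overlap lay between the knockout and wild type. These pairs shared 4 genes, 50% of each list, namely Zm00001d027955, Zm00001d016159, Zm00001d032742 and Zm00001d021773. The overexpression and wild-type pairs shared Zm00001d022356, which was 14.3% of the first list and 12.5% of the second. The overexpression and knockout pairs shared 0 genes. The 8 genes of the knockout pair had a median ratio of 1.72 in wild type and of 1.09 in the overexpression line.

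**Figure D2:**
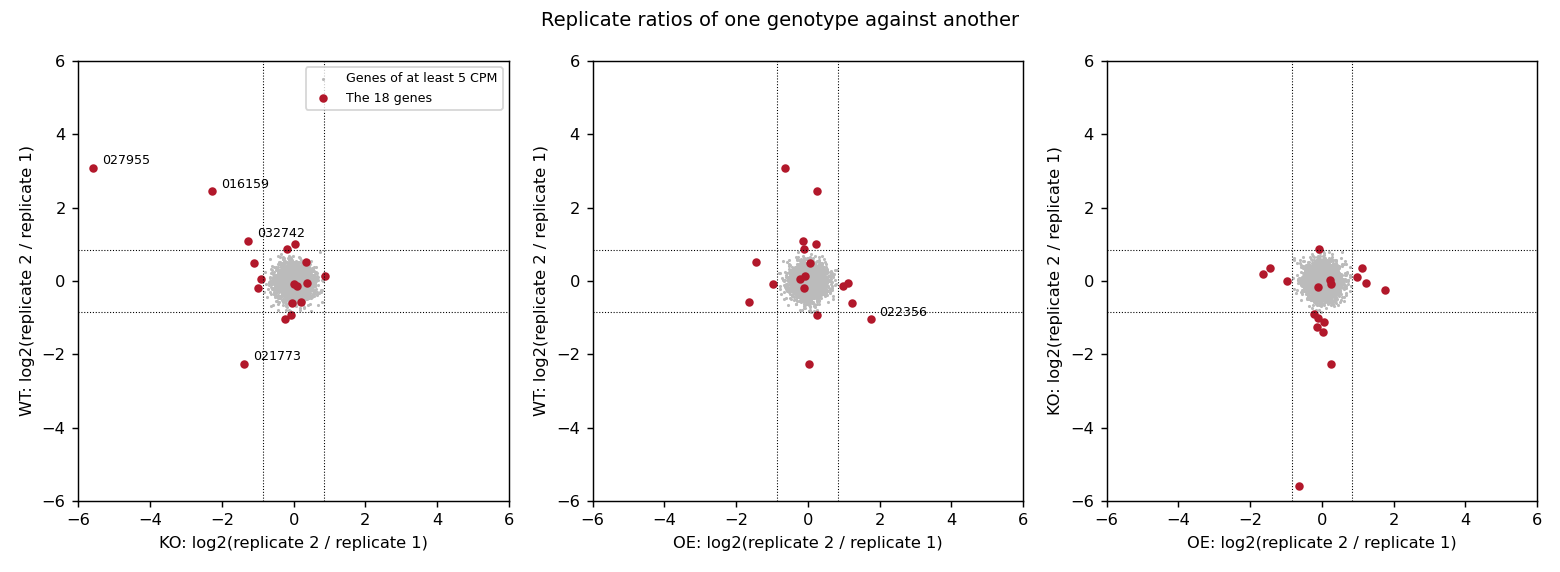
Each point is a gene, and each axis is the log2 ratio of replicate 2 to replicate 1 in a genotype: KO against WT, OE against WT and OE against KO, with grey points for genes of at least 5 CPM, red points for the 18 genes and dotted lines at a ratio of 1.8. Labels give the last 6 digits of the identifiers past the limit on both axes: 4 genes in the first panel, 1 in the second and 0 in the third.

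Whether the 18 genes move together was read from log2 CPM centred within each genotype, which leaves only the differences between replicates. Over the 153 pairs of the 18 genes the median Pearson r was -0.03, with values from -0.98 to 0.99. An r of at least 0.9 was found for 14 pairs (9.15%) and an r of -0.9 or lower for 8 pairs (5.23%). Among all pairs of genes of at least 5 CPM the shares were 5.005% and 5.004%, since 3 independent differences per gene make a high r frequent. All these correlations use the same 6 libraries, and genes are not independent replicates. Without centring, r over the 6 libraries was at least 0.9 for 3 pairs (1.96%, against 2.43% of all pairs) and -0.9 or lower for 2 (1.31%, against 2.35%).

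The 18 genes therefore did not move as 1 set. Scaled to equal size, their replicate differences spread over the 3 possible axes with 42.3%, 32.8% and 24.9% of the sum of squares, beside 34.4%, 32.9% and 32.7% for all genes of at least 5 CPM. On the log2 scale without that scaling the leading axis held 69.6%, and 46.0% without Zm00001d027955, so that 1 gene set much of it. The higher replicate of each genotype can combine in 8 ways, and the 18 genes fell into all 8, with 1 to 4 genes in each. All genes of at least 5 CPM fell into the 8 with 2119 to 2290 genes in each. A ratio near 1 counts here like a wide one.

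Small groups did share a pattern. The 3 genes with opposed replicates in the knockout and wild type, Zm00001d016159, Zm00001d027955 and Zm00001d032742, had a centred r of 0.93 to 0.98 with each other, and Zm00001d048246 had 0.91 to 0.98 with these. The 3 opposed genes separated over the 6 libraries, with r from 0.37 to 0.97, because Zm00001d027955 was also high in the overexpression line. Zm00001d048246 stayed with Zm00001d027955 there (r 0.94), and had 0.54 with Zm00001d016159 and 0.53 with Zm00001d032742. The 4 genes higher in overexpression replicate 2 had a centred r of 0.80 to 0.99, and the 3 higher in replicate 1 had 0.77 to 0.96. Over the 6 libraries r ranged from -0.11 to 0.94 in the first of these groups and from -0.03 to 0.29 in the second. Neither group moved together as a whole there. The 0.94 was that of Zm00001d017088 with Zm00001d036911, both lowest in overexpression replicate 1. Within each group the choice of genes fixed part of this likeness.

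Genes under the 5 CPM limit, which the choice did not use, were read for opposed replicates in either direction. This reading was added after the values of the 18 genes had been seen. Of 3541 genes with means from 1 to under 5 CPM, 45 had ratios of at least 1.8 in both the knockout and wild type. The replicates were opposed in 22 of them and the same in 23. Of the 22, 7 were higher in knockout replicate 1 and wild-type replicate 2, the direction of the 3 genes above the limit. The other 15 had the reverse direction. The other pairs of genotypes gave 32 genes (16 opposed, 16 the same) for the overexpression line with the knockout, and 28 (14 and 14) for the overexpression line with wild type. These weaker genes have fewer reads on average, so that counting error takes a larger part in their ratios. Their near-even split therefore says nothing about the 4 genes above the limit, of which 3 were opposed and 1 was the same.

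The comparisons between genotypes asked which of the 18 genes differed in mean level. The choice did not compare genotypes, but its values enter these comparisons: a wide replicate ratio moves the mean of its own genotype, and a mean of at least 5 CPM can rest on the high libraries alone. Zm00001d016159, with a mean of 5.06 CPM, passed that limit through knockout replicate 1 and wild-type replicate 2. The shares called are therefore given beside those of all genes as a description, and nothing about the 18 is read from the excess. All 18 passed edgeR's low-count filter. In edgeR's quasi-likelihood test across 22947 genes, with Benjamini-Hochberg adjusted p under 0.05 as the call, 6 of the 18 (33.3%) differed between the knockout and wild type, where 8.52% of all tested genes did. In the overexpression line 9 (50%) differed from wild type, against 29.2% of all genes. Between the overexpression line and the knockout 10 (55.6%) differed, against 26.7%. Among genes between 5 and 25 CPM the shares called were 4.76%, 23.1% and 22.5%. The median size of the log2 fold change was 0.26, 0.48 and 0.57 in the 18, against 0.11, 0.17 and 0.17 in all tested genes.

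In the knockout 2 genes rose (4.04% of all tested genes did) and 4 fell (4.48%) against wild type. Zm00001d027955 averaged 26.8 ± 36.4 CPM in the knockout and 5.32 ± 5.93 CPM in wild type (SD, n = 2 each), or 2.35 as a log2 fold change (SE 0.59; edgeR, adjusted p = 0.00799). Its groups overlapped, the lowest of the 6 values being a knockout library, and the log2 fold change was -2.29 when knockout replicate 1 was left out, 3.31 when knockout replicate 2 was, 4.58 when wild-type replicate 2 was, and 1.51, not called, when wild-type replicate 1 was (adjusted p = 0.198, edgeR). Zm00001d022356 averaged 24.1 ± 2.90 CPM in the knockout and 9.71 ± 4.80 CPM in wild type (SD, n = 2 each), with groups that did not overlap. Its log2 rise of 1.30 was 1.93 when wild-type replicate 1 was left out, and 0.88 and not called when wild-type replicate 2 was (adjusted p = 0.0534, edgeR).

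The 4 genes that fell in the knockout were Zm00001d021773, Zm00001d034776, Zm00001d039663 and Zm00001d021882. Zm00001d034776 averaged 8.77 ± 1.499 CPM in the knockout and 26.6 ± 6.85 CPM in wild type (SD, n = 2 each), or -1.61 as a log2 fold change (SE 0.23; edgeR, adjusted p = 5.2e-06). It kept its call with each library left out, at log2 values from -1.85 to -1.32. The call was lost at a log2 value of -1.61 with robust dispersions (adjusted p = 0.335, edgeR) and with DESeq2 (adjusted p = 0.114). Zm00001d039663 averaged 10.5 ± 0.255 CPM in the knockout and 25.3 ± 7.46 CPM in wild type, and Zm00001d021882 averaged 149 ± 70.2 CPM and 244 ± 23.6 CPM in the same order (SD, n = 2 each). The log2 fall of Zm00001d021882, -0.71, was -1.30 when knockout replicate 1 was left out and -0.30 when knockout replicate 2 was. The log2 fall of Zm00001d021773, -1.99, was -2.86 without knockout replicate 1 and -2.71 without wild-type replicate 2. When wild-type replicate 1 was left out, the value of this gene was -0.44 and not called (adjusted p = 0.409, edgeR).

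In the overexpression line 4 genes rose (15.3% of all tested genes) and 5 fell (13.9%) against wild type. Zm00001d045274 averaged 12.1 ± 8.82 CPM in the overexpression line and 4.58 ± 1.29 CPM in wild type (SD, n = 2 each), or 1.40 as a log2 fold change (SE 0.26; edgeR, adjusted p = 7.87e-05). The value was 2.01 without overexpression replicate 2, and 0.37 and not called without replicate 1 (adjusted p = 0.248, edgeR). Zm00001d027955 rose by 2.05 on the log2 scale with groups that did not overlap, at 26.5 and 17.0 CPM in the overexpression line against 1.12 and 9.51 CPM in wild type. That rise was 4.28 with wild-type replicate 2 left out. With wild-type replicate 1 left out it was 1.20 and not called (adjusted p = 0.191, edgeR). Zm00001d021773 and Zm00001d022356 also rose, by 0.99 and 0.80 on the log2 scale. Leaving out wild-type replicate 2 ended both calls, at 0.27 and 0.38 (adjusted p = 0.256 and 0.383, edgeR), and leaving out wild-type replicate 1 raised the values to 2.53 and 1.42. For Zm00001d022356 the value was 1.41 when overexpression replicate 1 was left out and -0.34 when replicate 2 was (adjusted p = 0.214, edgeR).

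The largest fall in the overexpression line was that of Zm00001d016159, with a mean of 1.92 ± 0.233 CPM against 6.70 ± 6.54 CPM in wild type (SD, n = 2 each) or -1.77 as a log2 fold change (SE 0.47; edgeR, adjusted p = 0.0033). Its groups overlapped, and leaving out wild-type replicate 1 gave a log2 value of -2.53. With replicate 2 left out instead it was -0.09 and not called (adjusted p = 0.929, edgeR). Zm00001d032742 fell by 0.96 on the log2 scale without overlap, to 14.5 and 13.2 CPM in the overexpression line against 17.3 and 36.9 CPM in wild type. Without wild-type replicate 2 it was at -0.31 (adjusted p = 0.386, edgeR). The remaining falls were those of Zm00001d036911, Zm00001d028186 and Zm00001d021882, at log2 values of -0.86, -0.61 and -0.58. The falls of the first 2 rested on 1 low overexpression library each: without it they were -0.42 and -0.19 and were not called (adjusted p = 0.116 and 0.596, edgeR). Without the other overexpression library they were -1.55 and -1.15. Zm00001d028186 was also not called when wild-type replicate 1 or 2 was left out (adjusted p = 0.111 and 0.0622, edgeR).

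Between the overexpression line and the knockout 4 genes were higher (14.1% of all tested genes) and 6 lower (12.6%) in the overexpression line. Zm00001d021773 averaged 31.4 ± 0.306 CPM in the overexpression line and 3.997 ± 2.53 CPM in the knockout (SD, n = 2 each), or 2.98 as a log2 fold change (SE 0.32; edgeR, adjusted p = 3.54e-09). It kept its call with each library left out, at log2 values from 2.46 to 3.85, the highest without knockout replicate 1. Zm00001d034776 was higher by 1.62 and Zm00001d039663 by 1.13 on the log2 scale, with both overexpression libraries above both knockout libraries. The value of Zm00001d034776 was 0.74 without overexpression replicate 1 and 2.19 without replicate 2, called in both. The call of Zm00001d039663 was lost without overexpression replicate 2, at 0.37 (adjusted p = 0.0918, edgeR). Zm00001d045274 was higher by 0.90 with groups that overlapped, at -0.13 without overexpression replicate 1 and 0.81 without knockout replicate 1, neither called (adjusted p = 0.759 and 0.104, edgeR). Without overexpression replicate 2 it was 1.52.

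The 6 genes lower in the overexpression line than in the knockout were Zm00001d016159, Zm00001d036911, Zm00001d032742, Zm00001d023432, Zm00001d028186 and Zm00001d017088, at log2 values of -1.76, -0.86, -0.74, -0.60, -0.58 and -0.55. Without knockout replicate 1, the values of Zm00001d016159 and Zm00001d032742 were -0.21 and 0.04 and neither was called (adjusted p = 0.855 and 0.945, edgeR). Without knockout replicate 2 they were -2.47 and -1.23. Zm00001d023432 was at 5.36 and 5.0 CPM in the overexpression line against 8.47 and 7.49 CPM in the knockout, and its spread lay in wild type, outside this comparison. The other 4 calls were also lost when some library of the comparison was left out. For Zm00001d036911 these were overexpression replicate 1 and knockout replicate 2 (adjusted p = 0.121 and 0.0513, edgeR), and for Zm00001d023432 overexpression replicate 2 and knockout replicate 1 (adjusted p = 0.066 and 0.148, edgeR). For Zm00001d028186 they were overexpression replicate 2 and either knockout library (adjusted p = 0.665, 0.12 and 0.0979, edgeR), and for Zm00001d017088 overexpression replicate 1 and either knockout library (adjusted p = 0.678, 0.113 and 0.173, edgeR). Over the overexpression libraries left out, the log2 values ran from -1.55 to -0.42 for Zm00001d036911, from -1.12 to -0.16 for Zm00001d028186 and from -1.14 to -0.16 for Zm00001d017088. The 3 comparisons share libraries in pairs, so that their calls are not separate evidence.

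**Figure D3:**
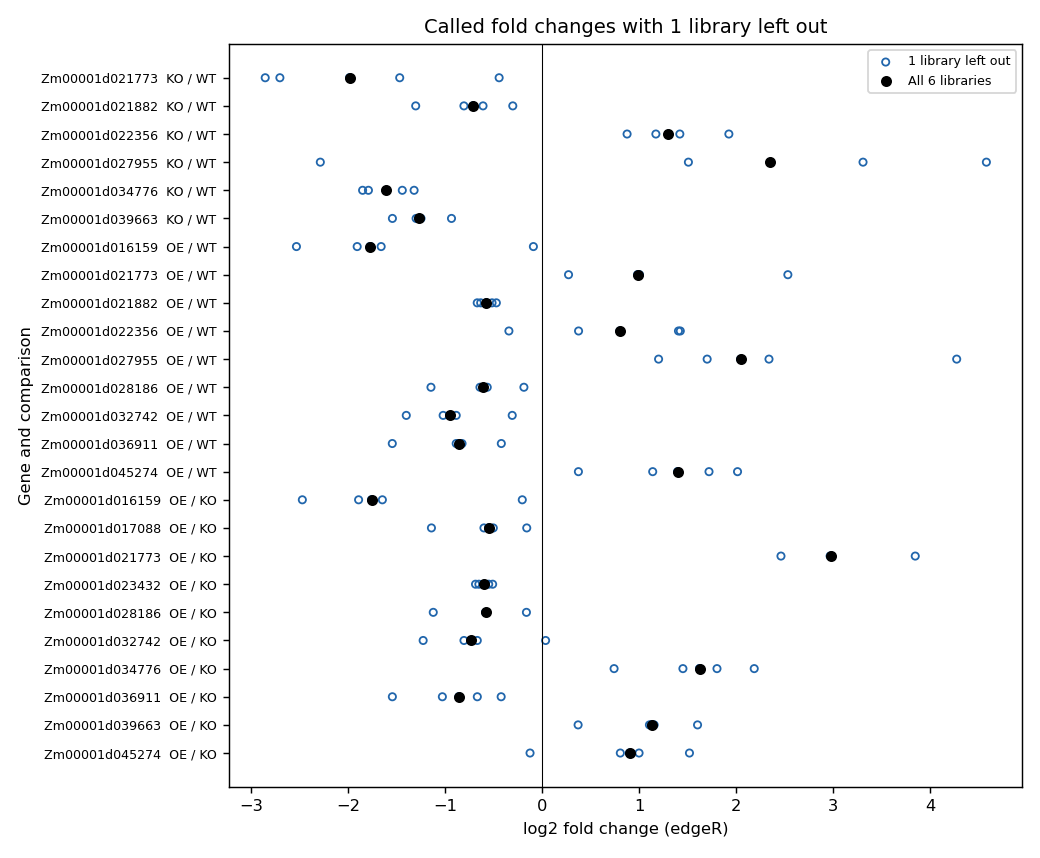
Each line is a gene and a comparison that edgeR called, with its log2 fold change over all 6 libraries (black) and with each library left out in turn (open blue circles). The 25 lines hold 4 in which a circle lies across 0: Zm00001d027955 in KO / WT, Zm00001d022356 in OE / WT, and Zm00001d032742 and Zm00001d045274 in OE / KO.

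Some of the called genes had groups that overlapped. Genes chosen for a wide replicate ratio are those whose groups can overlap while their means differ, so the number of such calls in the 18 follows in part from the choice and nothing is read from it. In each of the 3 comparisons, 2 of the called genes of this set had libraries that overlapped between the groups. Over all called genes there were 10 of 1954 (0.512%) for the knockout against wild type, 15 of 6698 (0.224%) for the overexpression line against wild type, and 25 of 6120 (0.408%) for the overexpression line against the knockout. The genes of this set were Zm00001d021773 and Zm00001d027955 in the knockout comparison, Zm00001d016159 and Zm00001d022356 in the overexpression comparison, and Zm00001d032742 and Zm00001d045274 between the lines. Groups of the 18 that did not overlap, called or not, numbered 7, 7 and 9, where 49.3%, 63.1% and 61.6% of all tested genes had such groups.

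The number of calls in the 18 depended on how the test formed the spread of a gene. The fit above has 3 residual degrees of freedom and gave every gene 33.2 further degrees of freedom from the spread of all genes. With edgeR's robust option, which lessens this share for genes of unusual spread, 9 of the 18 genes had under 3 such degrees of freedom, beside 41 of 22947 tested genes (0.179%). The choice by replicate ratio enters this count too. The calls in the 18 then numbered 0 for the knockout against wild type, 2 for the overexpression line against wild type and 4 between the lines, where 8.74%, 29.4% and 26.9% of all genes were called. DESeq2, which estimates the spread in another way, called 0, 0 and 2, against 5.54%, 21.0% and 19.0% of all genes with an adjusted p. At an unadjusted p under 0.05 the robust fit had 1, 2 and 4 of the 18, and DESeq2 had 3, 2 and 5. Limma-voom called 5, 7 and 8 of the 18, against 8.5%, 28.8% and 26.2% of all genes.

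**Figure D4:**
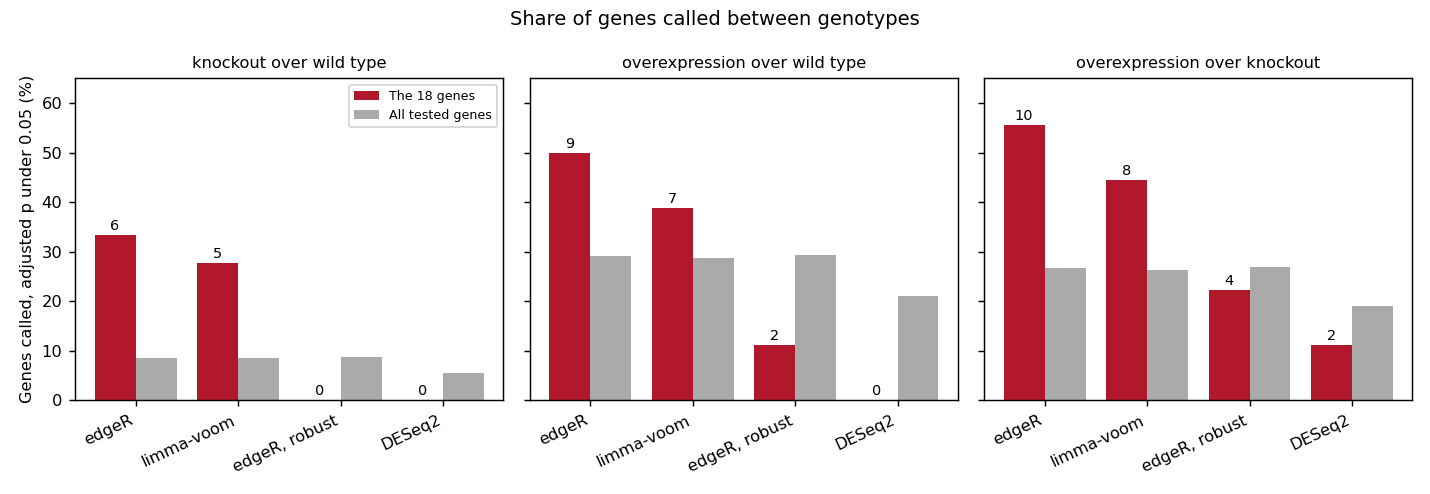
Bars give the percent of the 18 genes (red, with the number of genes above) and of all tested genes (grey) called at an adjusted p under 0.05 in each comparison by edgeR, limma-voom, edgeR with robust dispersions and DESeq2. The red bars exceed the grey ones for edgeR and limma-voom, and lie below them for the other 2 fits.

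The genes that DESeq2 called were Zm00001d021773, at 2.997 on the log2 scale (SE 0.97, adjusted p = 0.0154, DESeq2), and Zm00001d034776, with 1.64 (SE 0.62, adjusted p = 0.0453, DESeq2), both higher in the overexpression line than in the knockout. Robust edgeR did not call these (adjusted p = 0.145 and 0.214) and instead called Zm00001d036911 and Zm00001d028186 as lower in the overexpression line than in wild type and than in the knockout, and Zm00001d017088 and Zm00001d023432 as lower than in the knockout. Limma-voom called both sets. Of the 25 calls made by edgeR, 0 were made in every alternative.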

How the data were processed

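The deposited file gives unnormalized counts of reads by gene in 6 columns, 1 per library (whole numbers, with a different sum in each column); 0 columns were left unused. Per the labels' protocols, DNase-treated total RNA went into NEBNext Ultra II libraries. HISAT2 2.1.0, HTSeq, StringTie, Trimmomatic 0.35 and edgeR 3.32.1 are listed, with no roles, per the submitters' processing notes. Build, annotation and strand setting: not given in the sources used here, so overlapping genes and near-identical copies have uncertain counts.

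The genes and lists were chosen with earlier results of these data known. CPM was the count divided by the column total, with no pseudocount. Correlations, the shares of the sum of squares and the ratios of genes from 1 to under 5 CPM used log2 values with 0.5 added to each count. Genes passing filterByExpr (minimum count 10) were scaled by TMM and tested with edgeR 4.0.16 (R 4.3.3), quasi-likelihood F-test, in 1 fit of 3 group means; the SE is the log2 fold change divided by the square root of F. The fit was tested on simulated counts drawn with its own dispersions, which says nothing about genes chosen for a wide replicate ratio. The rule for named genes took the largest ratios and the called genes; the rest of the 18 were named after their values were seen. Alternatives included DESeq2 1.42.0 and limma-voom (limma 3.58.1). The 119 listed gene symbols matched 0 identifiers, so the 9 gene lists and marker lists were not analysed here, nor was the targeted gene.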

Additional observations from a re-analysis of the deposited data

How the results depend on the processing

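The set itself depends on its limits: 183 genes at a ratio of 1.5, 11 at a ratio of 2, 191 at a mean of 2 CPM, 7 at a mean of 10 CPM, 18 with TMM scaling, and 11 to 14 with the pair of 1 library left out. The median sizes of the log2 replicate ratio in the other genotypes, 0.25, 0.20 and 0.22 for the wild-type, knockout and overexpression pairs, were 0.25, 0.20 and 0.22 with TMM scaling but 0.95, 0.36 and 0.36 at a ratio of 2 and 0.95, 0.42 and 0.44 at a mean of 10 CPM, with few genes in each. Calls among the 18 (6, 9 and 10 for the knockout against wild type, the overexpression line against wild type, and the overexpression line against the knockout) stayed within 1.5 times with RLE size factors, other filters, limma-voom and fits of the 2 groups compared. They were 0, 2 and 4 with robust dispersions and 0, 0 and 2 with DESeq2. With 1 library left out they ranged from 5 to 8, 4 to 10 and 7 to 10; the lone library left in a group is taken to vary as the other groups do. Without wild-type replicate 2 the second count was 4. Other genes were called in part: without knockout replicate 1, 4 of the 9 called between the lines were among the original 10, and without knockout replicate 2 it was 7 of 9. Signs turned for 4 log2 fold changes: Zm00001d027955 in the knockout against wild type (-2.29 to 4.58 over the libraries left out, negative without knockout replicate 1), Zm00001d022356 in overexpression against wild type (-0.34 to 1.42, without overexpression replicate 2), and, between the lines, Zm00001d032742 (-1.23 to 0.035, without knockout replicate 1) and Zm00001d045274 (-0.13 to 1.52, without overexpression replicate 1). Of 350 values of called genes, 269 kept their call, 77 lost it and 4 turned. Across genes of at least 5 CPM, log2 replicate ratios correlated at -0.056 between the knockout and wild type. For the overexpression line the r was -0.006 with wild type and -0.003 with the knockout. Most ratios were small, with a median of 1.05 in each genotype, so these values cannot tell whether replicate numbers pair the libraries. A block for replicate number left 5, 8 and 10 of the 18 called. The 3541 genes from 1 to under 5 CPM, added after the data were seen, gave 22 opposed cases and 23 with the same replicate higher. The 17376 genes of at least 5 CPM gave 3 and 1. Knockout replicate 1 and wild-type replicate 2 were the higher libraries in 7 of the 22 opposed cases and in all 3. The causes were not tested. Each genotype had only 2 libraries, and low counts limit ratios near 5 CPM.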
